A study of Mus musculus with 24 samples.

Results

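The transcriptomes of fasted livers that lacked Pparα were compared directly with those of fasted livers that lacked Cpt2. The comparison used the 4 Ppara KO and the 4 Cpt2L-/- libraries, 8 of the 24 libraries in the series, and all genes of the count table. By the labels all mice were C57BL/6 males, 8 to 10 weeks of age, fed chow and fasted for 24 h. Cpt2L-/- mice carry floxed Cpt2 deleted by Albumin-Cre, so the loss is limited to cells that express the albumin promoter. The labels give the other genotype only as a Pparα knockout, and neither the allele nor the breeding of these mice is given in the sources used here. Controls were wild type by the labels and floxed littermates by the study's methods. The Cpt2L-/- Ppara KO group combines both genotypes. The labels do not state that each library came from its own animal, so p-values measure the spread between libraries.

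Pparα is a nuclear receptor that binds DNA as a partner of Rxr and is activated by fatty acids and their derivatives. In fasting it drives the genes that import, activate and oxidize fatty acids and that make ketone bodies. Cpt2 (carnitine palmitoyltransferase 2) acts downstream, at the inner mitochondrial membrane, where it regenerates acyl-CoA for β-oxidation. The models thus act on fatty acid oxidation at different points, on the transcriptional program and on an enzyme.

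Total counts were 15021749 to 20371204 in Ppara KO and 15974454 to 18461578 in Cpt2L-/- libraries. The 4 Ppara KO libraries were less alike than the 4 Cpt2L-/- libraries. The mean Euclidean distance in log2 CPM (CPM, the counts scaled to a common library size after TMM normalization) was 88.8 within Ppara KO, 57.7 within Cpt2L-/- and 116 between the groups. On the first principal component, which held 55.1% of the variance, Cpt2L-/- lay between -51.6 and -43.3, Ppara KO replicates 1 and 4 at 20.4 and 35.5, and replicates 2 and 3 at 70.3 and 63.8. On the second component (19.4%) replicates 1 and 4 lay at -23.5 and -63.9 and replicates 2 and 3 at 37.1 and 22.1. Replicate 1 of Cpt2L-/- Ppara KO, which entered the fits of 16 and 24 libraries but not the fit of 8, stood apart from its group. Among Pparα target genes, Ehhadh was at 3456 CPM against 127 to 168 CPM in the other 3 libraries. Beyond these genes, its summed ribosomal protein genes were at 56800 CPM against 18300 to 29300 CPM. Its summed endothelial markers were at 235 CPM against 394 to 513 CPM.

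**Figure D1:**
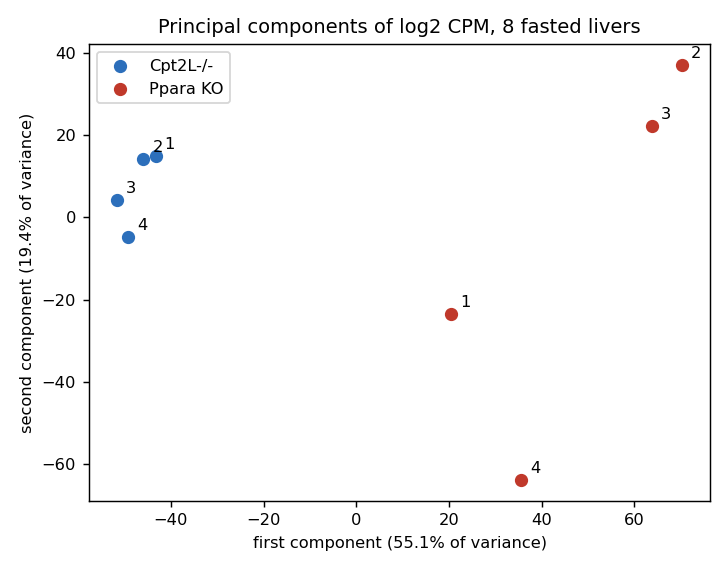
Principal components of log2 CPM in the 8 libraries, with the share of variance on each axis. Blue points are Cpt2L-/- and red points Ppara KO, numbered by replicate. The Cpt2L-/- libraries lie together at the left, between -51.6 and -43.3, and Ppara KO replicates 1 and 4 lie below replicates 2 and 3.

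Of 12860 genes tested with edgeR's quasi-likelihood test, 2127 (16.5%) had an adjusted p-value under 0.05 and are said here to be called. Of these, 1109 (8.62%) were higher and 1018 (7.92%) were lower in Ppara KO. Log2 fold changes are given as Ppara KO over Cpt2L-/-. Their median was 0.0094 over all genes tested. With limma on log2 FPKM the split was 767 higher and 1101 lower. In 2786 genes (21.7%) the values of the groups did not overlap. Against control, in a fit of 12 libraries, 4528 of 13387 genes (33.8%) were called in Ppara KO, 18.3% higher and 15.5% lower, and 2794 (20.9%) in Cpt2L-/-, 11% higher and 9.92% lower. The order of these counts turned when each group was fitted with control alone, with 3559 genes called in Ppara KO and 4137 in Cpt2L-/-. These comparisons share the 4 control libraries, so their values are set side by side below and no overlap between them is read. Genes that differ between C57BL/6 substrains set the controls apart from both groups (values in the last paragraph), and the part of this in the comparisons with control was not tested. A self-test on simulated counts, over 12686 genes, changed 95 genes by 1 and 98 by 2 on the log2 scale, fewer than the 2127 called here. Both groups were given the same dispersion, unlike the spread seen in these libraries, so its shares need not hold for this comparison. The edgeR test recovered 31.6% of changes of 1 and 84.7% of changes of 2. Of its calls 7.38% were genes simulated without a change (9 genes), and with DESeq2 25% were (46 genes). A gene that was not called may therefore still differ, and some calls may be false. Genotype, breeding and handling cannot be told apart in this design.

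**Figure D2:**
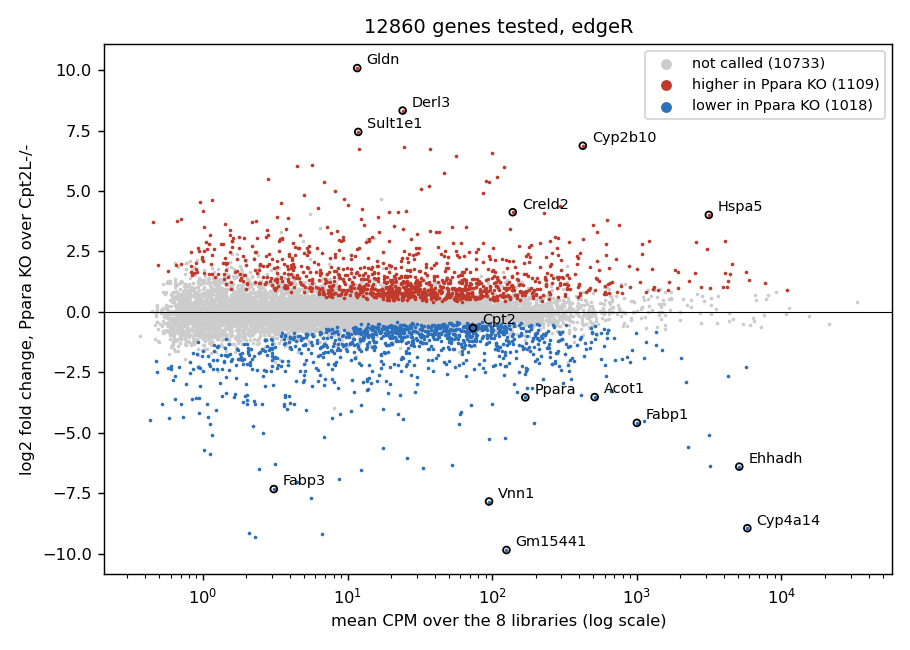
Log2 fold change of Ppara KO over Cpt2L-/- against the mean CPM of each gene over the 8 libraries (log scale). Each point is a gene; red marks the 1109 called higher, blue the 1018 called lower and grey the genes not called. Genes of fatty acid metabolism such as Cyp4a14 and Ehhadh are abundant, with means of 5806 and 5108 CPM, and lie far below 0, while Hspa5, with a mean of 3146 CPM, lies far above.

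The targeted genes were examined first. Ppara (ENSMUSG00000022383, chromosome 15, 85734983 to 85802819, plus strand, GRCm38) was at 44.6, 13.1, 12.7 and 36.9 CPM in Ppara KO and at 271, 301, 378 and 298 CPM in Cpt2L-/- replicates 1 to 4. The groups did not overlap, and the log2 fold change was -3.54 (SE 0.42, edgeR adjusted p = 0.00028). Reads remained on the gene in every Ppara KO library, most in replicates 1 and 4. Cpt2 (ENSMUSG00000028607, chromosome 4, 107903981 to 107923610, minus strand) was at 92.6, 103, 78.8 and 86.5 CPM in Cpt2L-/- and at 94.9, 38.3, 49.7 and 45.9 CPM in Ppara KO. Counts summed over the gene cannot show whether some exons are missing, so they leave the Cpt2L-/- label unchecked. Control livers were at 97.1 ± 6.08 CPM (SD, n = 4), and Cpt2 was not called in Cpt2L-/- against them (log2 fold change -0.11, edgeR adjusted p = 0.78) and was called lower in Ppara KO (-0.76, adjusted p = 0.019). Between Ppara KO and Cpt2L-/- the gene was not called (log2 fold change -0.67, edgeR adjusted p = 0.11). Without Ppara KO replicate 1, which was at the Cpt2L-/- level, it was called lower (log2 fold change -0.997, adjusted p = 0.0025). Among genes that start within 5 Mb of Ppara, 21 of 99 tested were called (21.2%), and within 5 Mb of Cpt2, 10 of 54 (18.5%). Within 10 Mb the shares were 18.4% and 18%. All lie near the 16.5% called over all genes tested.

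Among 21 receptors and cofactors that work with Pparα, none was called higher and 4 lower, and the median log2 fold change was 0.04. Besides Ppara these were Ppargc1a (coactivator of fasting metabolism), Creb3l3 (an ER-bound transcription factor of fasting lipid metabolism) and Pparg. Ppargc1a was at 13.2, 10.6, 6.30 and 6.98 CPM in Ppara KO and at 28.3, 22.2, 18.6 and 19.0 CPM in Cpt2L-/- (log2 fold change -1.26, SE 0.26, edgeR adjusted p = 0.0071). Creb3l3 was at 334 to 368 CPM in Ppara KO and 606 to 658 CPM in Cpt2L-/-, a small difference with little spread (log2 fold change -0.86, adjusted p = 0.0025). Pparg was called by a narrow margin (adjusted p = 0.040), and the call was lost when any library but Ppara KO replicate 1 was left out (adjusted p up to 0.12). The Rxr genes and the other cofactors were not called.

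The genes of mitochondrial fatty acid oxidation were lower in Ppara KO almost as a block. Of 27 tested, 23 were lower and none higher, with a median log2 fold change of -1.76. Leaving out any library gave 21 or 22. Eci1, the enoyl-CoA isomerase for unsaturated fatty acids, was at 56.9, 47.6, 44.9 and 45.2 CPM in Ppara KO and at 243, 330, 341 and 249 CPM in Cpt2L-/- (log2 fold change -2.59, SE 0.18, edgeR adjusted p = 1.4e-05). Decr1, the reductase that works on the same class of fatty acids, was at 81.5 to 111 CPM and 421 to 557 CPM. Slc25a20, the carnitine carrier that hands acylcarnitines to Cpt2, was at 51.2 to 61.3 CPM and 235 to 314 CPM. None of these groups overlapped, and the log2 fold changes of the latter 2 were -2.40 and -2.37. The β-oxidation enzymes of the inner membrane and matrix followed, with log2 fold changes of -2.21 for Hadha, -2.05 for Acadvl, -1.54 for Acadm and -1.35 for Acadl. Cpt1a, which makes acylcarnitines at the outer membrane, was at 858, 721, 498 and 686 CPM in Ppara KO and at 1247, 1771, 1690 and 1731 CPM in Cpt2L-/-. Its log2 fold change was -1.23 (SE 0.21, adjusted p = 0.0029), less than that of most of the enzymes after it. The 4 genes not called were Cpt2, Acad9, Acad10 and Echs1. Against control, 25 of the 27 genes were lower in Ppara KO, while in Cpt2L-/- 4 were higher and none lower.

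Of the 10 tested genes of ketone body metabolism 4 were lower and 2 higher, with a median log2 fold change of -0.49. Bdh1, which interconverts acetoacetate and β-hydroxybutyrate, was at 126, 25.8, 20.5 and 40.9 CPM in Ppara KO and at 196, 352, 348 and 267 CPM in Cpt2L-/- (log2 fold change -2.45, adjusted p = 0.0091), a call lost without the filter on low counts. The thiolase Acat1 was at 220, 124, 149 and 78.5 CPM and at 407, 526, 453 and 335 CPM (log2 fold change -1.60, SE 0.28, edgeR adjusted p = 0.0033), and its groups did not overlap. Bdh2 and Slc16a6 were higher. Bdh2, a cytosolic relative of Bdh1, was at 4.26 to 8.96 CPM in Ppara KO and 0.87 to 1.98 CPM in Cpt2L-/-.

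Peroxisomal genes held some of the largest differences. Of 42 tested, 23 were lower and 2 higher in Ppara KO, with a median of -0.87. Ehhadh, the bifunctional enzyme of peroxisomal β-oxidation, was at 153, 128, 106 and 92.9 CPM in Ppara KO and at 8411, 9556, 10520 and 11900 CPM in Cpt2L-/- (log2 fold change -6.40, SE 0.27, edgeR adjusted p = 1.6e-06). Control livers lay between, at 3279 ± 1190 CPM (SD, n = 4), with log2 fold changes of -4.76 in Ppara KO and 1.62 in Cpt2L-/- against them. Acaa1b, the thiolase of the same pathway, was at 70.7 to 263 CPM and 4789 to 7021 CPM. The acyl-CoA importer Abcd2, the carnitine octanoyltransferase Crot and Pex11a, which promotes peroxisome division, had log2 fold changes of -4.24, -3.27 and -2.79. The other peroxins that were called, among them Pex5, Pex14 and Pex19, had log2 fold changes of -0.65 (Pex6) to -1.20 (Pex19). The 2 genes called higher, Acox2 and Pecr, differed by 0.79 and 0.78.

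**Figure D3:**
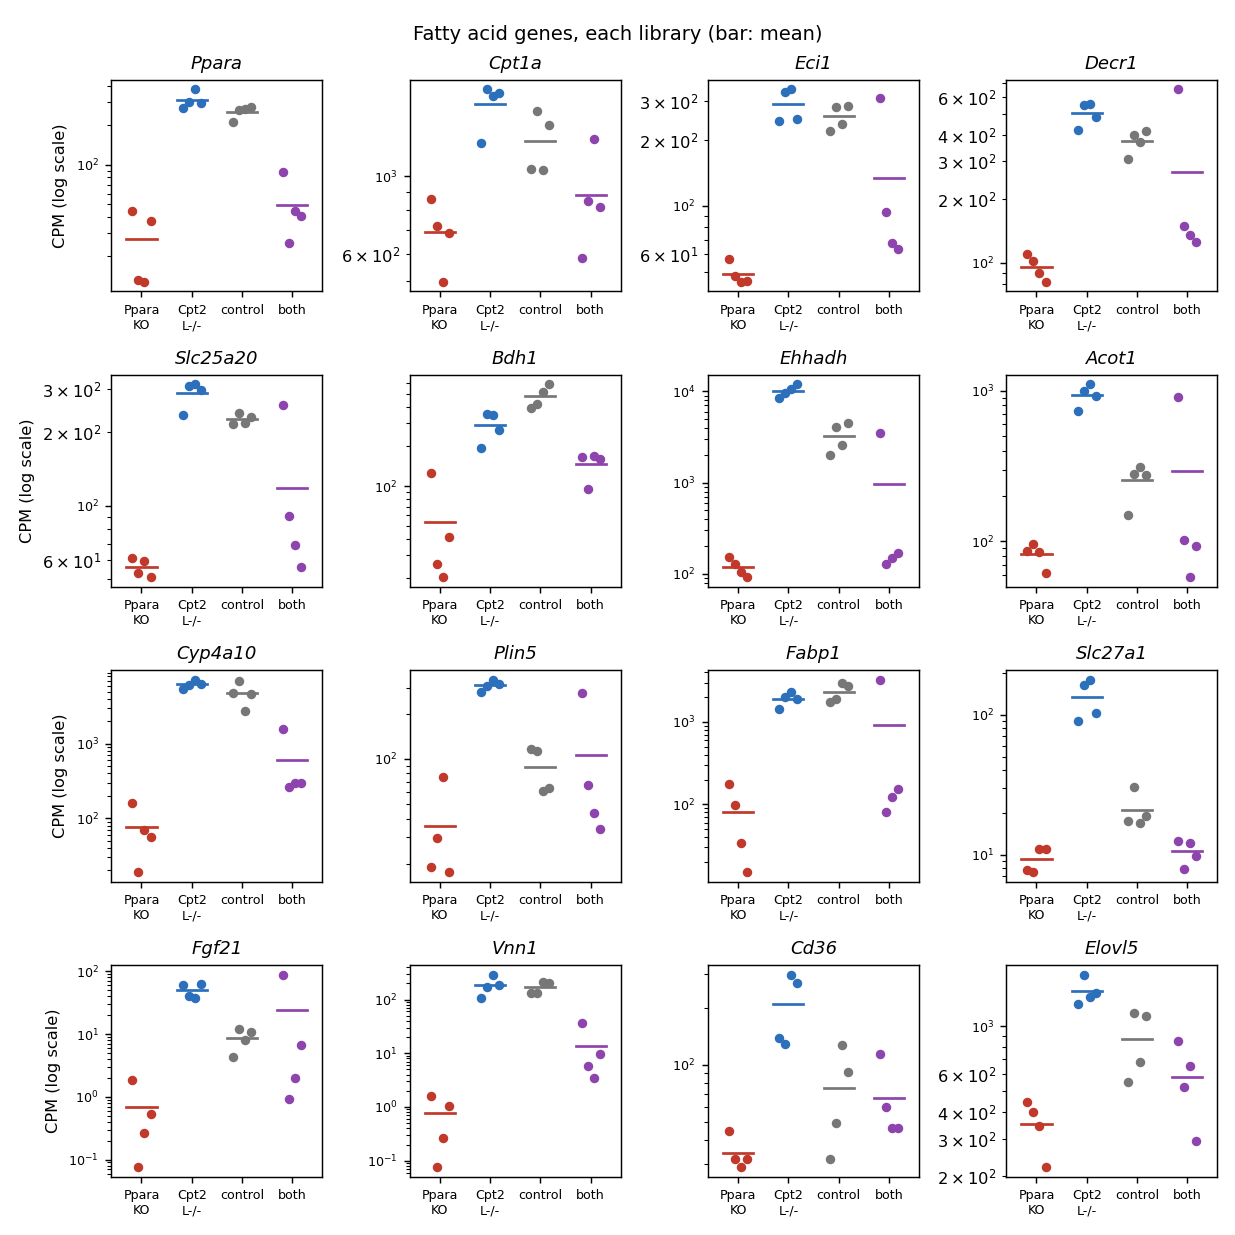
CPM (log scale) of 16 genes of fatty acid metabolism in each library, in Ppara KO, Cpt2L-/-, control and Cpt2L-/- Ppara KO ("both") livers. Points are libraries in replicate order and bars are group means. Ppara KO lies below Cpt2L-/- in each of the 16 genes, and the first library of the last group holds 3456 CPM of Ehhadh.

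The ω-hydroxylases oxidize fatty acids from the methyl end in the microsomes. Cyp4a14 was at 57.2, 4.55, 20.6 and 11.8 CPM in Ppara KO and at 10200, 12060, 12520 and 11570 CPM in Cpt2L-/- (log2 fold change -8.95, SE 0.80, edgeR adjusted p = 5.4e-05). Cyp4a10 was at 159, 19.1, 70.6 and 56.7 CPM and at 5426, 6176, 7251 and 6393 CPM (log2 fold change -6.38). In both genes Ppara KO replicate 1 was the highest and replicate 2 the lowest of the group, still far from any Cpt2L-/- library. Cyp4a32 (-5.21) and Aldh3a2, which oxidizes the fatty aldehydes that follow (-4.51), were lower too. Because Cyp4a genes are near-identical copies, the authors' counting could have split reads between them. Of 18 genes tested, 8 were lower and 2 higher (Cyp4f13 and Cyp4f14), with a median of -0.51. Among 12 acyl-CoA thioesterases, which release free fatty acids from acyl-CoA, 7 were lower and 1 higher, with a median of -1.11. The cytosolic Acot1 was at 85.9, 95.6, 85.4 and 61.9 CPM in Ppara KO and at 738, 1001, 1101 and 920 CPM in Cpt2L-/- (log2 fold change -3.53, SE 0.21, adjusted p = 6.0e-06). Its mitochondrial and peroxisomal relatives Acot2 (-3.16) and Acot3 (-6.33) were also lower, and these copies also share sequence. Acot11 was the gene called higher (2.53).

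Lipid droplet genes were lower in 15 of 21 tested and higher in none, with a median of -1.36. Plin5, the perilipin that tethers droplets to mitochondria, was at 19.1, 29.5, 75.4 and 17.6 CPM in Ppara KO and at 281, 309, 339 and 318 CPM in Cpt2L-/- (log2 fold change -3.15, SE 0.43, edgeR adjusted p = 0.00076). Plin2, the main perilipin of hepatocytes, was at 1218, 504, 1038 and 667 CPM and at 3115, 3000, 2948 and 3549 CPM (log2 fold change -1.89, adjusted p = 0.0011). Against control (491 ± 98.3 CPM, SD, n = 4) Plin2 was higher in both, with log2 fold changes of 0.81 in Ppara KO and 2.68 in Cpt2L-/-. The fat-storage protein Fitm1 (-5.17), the droplet-bound Hsd17b11 (-3.45), Plin4 (-2.99), Cidec (-2.95) and the Pnpla2 inhibitor G0s2 (-2.56) were lower as well. Against control, 11 of the 21 genes were lower and 4 higher in Ppara KO, and 10 were higher and 1 lower in Cpt2L-/-.

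Of 30 genes of fatty acid uptake, binding and activation, 15 were lower and 1 higher, with a median of -0.75. Fabp1, the abundant fatty acid binding protein of the liver, was at 177, 97.1, 33.6 and 15.03 CPM in Ppara KO and at 1453, 2039, 2302 and 1895 CPM in Cpt2L-/- (log2 fold change -4.59, SE 0.67, edgeR adjusted p = 0.0011). Fabp3, the form known from heart and muscle, was at 2 counts over the 4 Ppara KO libraries and 432 over the 4 Cpt2L-/- libraries (4.12 to 8.35 CPM). The ratio was 200 (95% exact interval 54.9 to 1650, counting error only). The fatty acid transporter Slc27a1 was at 7.76, 7.52, 10.9 and 11.04 CPM and at 89.8, 164, 178 and 103 CPM (log2 fold change -3.85). Cd36, a fatty acid translocase, was at 28.9 to 44.7 CPM and 128 to 298 CPM (log2 fold change -2.61). The groups of these 4 genes did not overlap.

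The promoter of Fabp1 is shown because it was among the 3 promoters of genes called lower that matched a direct repeat of the Ppar-Rxr half-site with a spacer base. The motif searched was 2 copies of AGGNCA, with a base of any kind between the copies, on either strand, in windows from 250 bases before to 50 after each RefSeq start (GRCm38.p6). It lay in 0.293% of the 1025 promoters of genes called lower, 0.379% of the 1056 of genes called higher and 0.381% of all 32851. The stricter form, with AGGTCA in both copies, lay in none of the promoters of called genes and in 0.0396% of all. The match in Fabp1, in capitals, lay on the opposite strand, 67 to 55 bases before the start, and the 250 bases before the start on chr6:71199629-71199878 (plus strand) read:
Fabp1: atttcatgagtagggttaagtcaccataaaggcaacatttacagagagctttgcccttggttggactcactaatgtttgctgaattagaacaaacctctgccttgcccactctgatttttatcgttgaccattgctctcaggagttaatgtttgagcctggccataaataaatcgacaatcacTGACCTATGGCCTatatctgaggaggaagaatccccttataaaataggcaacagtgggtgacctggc
No share of this motif set the genes called lower apart from all promoters in the table. Windows farther from the start were not searched.

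Elongases and desaturases, which build long polyunsaturated fatty acids, were lower in 9 of 19 tested and higher in none (median -0.89). Elovl5 was at 444, 400, 344 and 221 CPM in Ppara KO and at 1275, 1737, 1364 and 1434 CPM in Cpt2L-/- (log2 fold change -2.06, SE 0.23, edgeR adjusted p = 0.00022). Fads2 (-1.98), Elovl2 (-1.96) and Elovl7 (-1.90) behaved alike. Elovl7 was 0.73 ± 0.45 CPM (SD, n = 4) in control livers, 2.13 to 7.65 CPM in Ppara KO and 15.1 to 22.9 CPM in Cpt2L-/-, so it was higher than control in both models. Scd1, the stearoyl-CoA desaturase, was not called, and its values overlapped (233 to 822 and 204 to 759 CPM).

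Genes of lipogenesis and triglyceride synthesis moved both ways, with 10 lower, 3 higher and a median of -0.31 over 30 tested. The lower genes included Mogat1 (-3.61), Gpd1 (-1.81), malic enzyme Me1 (-1.58) and Gpam (-1.51), which feed or catalyze triglyceride assembly. Fasn, the fatty acid synthase, was at 81.9, 1222, 543 and 187 CPM in Ppara KO and at 52.2, 59.9, 72.7 and 59.0 CPM in Cpt2L-/- (log2 fold change 3.05, SE 0.67, edgeR adjusted p = 0.011). Thrsp, a lipogenic regulator, was at 15.4, 637, 167 and 24.4 CPM and at 4.09 to 4.67 CPM (log2 fold change 5.59, adjusted p = 0.0056). Within Ppara KO, replicates 2 and 3 were several-fold above replicates 1 and 4 in both genes, and both calls were lost without the filter on low counts (adjusted p = 0.085 and 0.066). Acly, which supplies cytosolic acetyl-CoA, and Srebf1 were not called (0.52 and -0.45), but Acly was called higher in the fit of 12 libraries (0.54, adjusted p = 0.048) and without Ppara KO replicate 3 (0.68, adjusted p = 0.023).

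Of 30 genes of cholesterol synthesis and uptake, 11 were higher in Ppara KO, 3 lower and 16 not called, with a median of 0.46. The enzymes Mvd (1.49), Nsdhl (1.37) and Sqle (1.21) were among them, and so was the cholesterol exporter Abca1 (1.26). Mvd lost its call in the fit of 12 libraries (adjusted p = 0.082). Sqle lost its call in the fits of 12, 16 and 24 libraries, with limma, and without Cpt2L-/- replicate 1, 2 or 3 (adjusted p = 0.061 to 0.26). The list's count of calls fell from 14 to 6 in the fits of 12 and of 16 libraries, and to 8 without Cpt2L-/- replicate 3. Against control, 14 of these genes were lower in Ppara KO and 16 in Cpt2L-/-.

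Bile acid genes were higher in 13 and lower in 3 of 29 tested (median 0.66). Akr1d1, which reduces the steroid ring, was at 36.2, 166, 104 and 82.8 CPM in Ppara KO and at 7.32, 10.1, 10.96 and 5.37 CPM in Cpt2L-/- (log2 fold change 3.52, SE 0.43, edgeR adjusted p = 0.00035), against 165 ± 29.4 CPM (SD, n = 4) in control livers. Cyp2c70, which makes the muricholic acids of mice, was at 214, 164, 225 and 354 CPM and at 5.09, 2.66, 1.74 and 5.48 CPM (log2 fold change 5.99, adjusted p = 1.6e-05). Slc10a2, a bile acid importer, and Cyp7b1 of the alternative pathway were higher by 3.597 and 2.86. Nr0b2, the repressor that answers to bile acids, was higher by 3.54, with 9.16 CPM in Cpt2L-/- replicate 3 and 0.85 to 1.80 CPM in the other Cpt2L-/- libraries, and was not called without the filter on low counts (adjusted p = 0.057). Cyp7a1, the rate-limiting enzyme of the classical pathway, did not differ beyond its spread (3.62 to 27.7 and 5.16 to 13.6 CPM) and was far below control in both (256 ± 154 CPM, SD, n = 4). Cyp8b1, which makes cholic acid, was lower (-1.97). Against control, no bile acid gene was higher in Cpt2L-/- and 19 were lower, while 4 were higher and 12 lower in Ppara KO. Among 26 apolipoproteins and lipoprotein assembly genes, 5 were higher and 4 lower (median 0.20), with the endothelial lipase Lipg (-4.21) and Apoa4 (-2.28) lower. Apol9a and Apol9b were among the higher genes (edgeR adjusted p = 9.8e-05 and 0.00018).

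Glucose genes split evenly, with 9 higher and 9 lower of 37 (median -0.15). Ppp1r3c, which directs protein phosphatase 1 to glycogen, was at 19.3, 5.997, 27 and 10.1 CPM in Ppara KO and at 1.54, 2.48, 2.09 and 1.74 CPM in Cpt2L-/- (log2 fold change 2.98, SE 0.44, edgeR adjusted p = 0.0011). The related subunit Ppp1r3b (2.85) was also higher, and Gys2, the liver glycogen synthase, was lower (-1.85). Ppp1r3g, of the same family, was called lower (edgeR adjusted p = 0.019). The Ppp1r3g call was lost without the filter on low counts and without Cpt2L-/- replicate 3 or 4 or Ppara KO replicate 3. The gluconeogenic genes Pck1 (-0.46) and G6pc (0.32) were not called. Pdk4, which restrains pyruvate oxidation, was at 22.5, 200, 277 and 15.9 CPM in Ppara KO and at 350 to 644 CPM in Cpt2L-/-. The groups did not overlap, but replicates 2 and 3 of Ppara KO were far above replicates 1 and 4, and the gene was not called by edgeR (log2 fold change -2.07, adjusted p = 0.093). Pdk4 was called lower by limma on log2 FPKM (-2.93, adjusted p = 0.025).

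Fgf21, the fasting hormone of the liver, was at 1.85, 0.076, 0.27 and 0.53 CPM in Ppara KO and at 60.7, 41.0, 37.0 and 63.7 CPM in Cpt2L-/- (log2 fold change -6.05, SE 0.57, edgeR adjusted p = 7.3e-05). Control livers held 8.80 ± 3.43 CPM (SD, n = 4), and the log2 fold changes against them were -3.50 in Ppara KO and 2.53 in Cpt2L-/-. Gdf15, a stress-induced hormone, was at 66.0, 215, 417 and 25.9 CPM in Ppara KO and 39.4 to 85.1 CPM in Cpt2L-/-, both far above control (6.41 ± 3.50 CPM, SD, n = 4). The Gdf15 difference was not called (1.66, adjusted p = 0.12) and was called without Ppara KO replicate 4 (adjusted p = 0.019). Angptl4, the inhibitor of lipoprotein lipase, was not called and its values overlapped (96.1 to 271 and 195 to 241 CPM). Of 36 secreted hepatokines 15 were higher and 5 lower (median 1.03), the higher ones including Manf (4.10), Lcn2 (3.43), Serpina6 (3.03) and Fgb (2.95).

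The genes with the largest falls also included transcripts close to 0 in Ppara KO. Gm15441, a long non-coding transcript antisense to Txnip, was at 0.14, 0.53, 0.47 and 0 CPM in Ppara KO and at 281, 215, 297 and 211 CPM in Cpt2L-/- (log2 fold change -9.85, SE 0.49, edgeR adjusted p = 2.2e-06). Txnip, an arrestin-like inhibitor of thioredoxin chosen after its values were seen, was at 58.4, 134, 116 and 48.6 CPM and at 247, 215, 270 and 199 CPM (log2 fold change -1.40). The strand setting of the counting is not given in the sources used here, but Gm15441 was near 0 in libraries in which Txnip was well expressed. Ucp3, a mitochondrial carrier related to uncoupling proteins, had 0 counts in all Ppara KO libraries and 3.29 to 5.82 CPM in Cpt2L-/-. It was at least 99.2-fold lower, taking 3 counts over the group as the limit that a count of 0 allows. Rufy4 also had 0 counts and was at least 90.0-fold lower. Vnn1, the pantetheinase, was at 1.62, 0.076, 0.27 and 1.06 CPM and at 109, 172, 291 and 185 CPM (log2 fold change -7.85). The ratios of Cpt2L-/- to Ppara KO counts were 878 (157 to 34700) for the adrenergic receptor Adra2a, 242 (82.3 to 1170) for Slc35f2 and 144 (56.0 to 531) for Caln1, with 95% exact counting intervals. Gal3st1, a sulfotransferase of sulfatide synthesis, was lower too (-6.90).

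Chaperones and folding enzymes of the endoplasmic reticulum (ER) were nearly all higher in Ppara KO. Of 29 genes of the unfolded protein response 24 were higher and none lower, with a median log2 fold change of 1.83. All 29 had a value above 0, and leaving out any library kept the count between 21 and 24. Hspa5 (BiP), the main chaperone of the ER lumen, was at 2049, 4787, 7257 and 9607 CPM in Ppara KO and at 401, 295, 322 and 451 CPM in Cpt2L-/- (log2 fold change 4.01, SE 0.45, edgeR adjusted p = 0.0002). Control livers were at 793 ± 225 CPM (SD, n = 4), so the log2 fold changes against control were 2.92 in Ppara KO and -1.11 in Cpt2L-/-. Derl3, which helps export misfolded proteins, was at 10.4, 26.7, 76.7 and 78.0 CPM and at 0.27, 0.25, 0 and 0.054 CPM (log2 fold change 8.33). Sdf2l1, a partner of Hspa5, was at 87.0, 117, 210 and 327 CPM and at 5.04, 2.73, 3.07 and 6.999 CPM (log2 fold change 5.37). In these genes replicate 1 was the lowest Ppara KO library and replicate 4 the highest. Creld2 (4.12) and Manf (4.10), both ER-resident and secreted under ER stress, Hsp90b1 (2.95) and the disulfide isomerases Pdia4 (3.03) and Pdia6 (2.28) were higher as well. The sensor Ern1 (0.41) and the kinase Eif2ak3 (0.04) were not called, while Atf6 and Xbp1 were higher by 0.70 and 0.60. Against control, 22 of the 29 genes were higher and none lower in Ppara KO, and 1 was higher and 15 lower in Cpt2L-/-. Hspa5, Hsp90b1 and Pdia6 were chosen after their values were seen.

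Promoters of 5 of these genes are shown because they hold a match to the ER stress element. This element was searched as CCAAT and CCACG with 9 bases of any kind between them, on either strand. It was chosen after the ER genes were seen to be higher. It lay in 10 of 1056 promoters of genes called higher (0.947%) and in 1 of 1025 of genes called lower (0.0976%). Among promoters of all genes tested it lay in 17 of 12695 (0.134%), and in 39 of all 32851 (0.119%). Among genes higher by at least 1 on the log2 scale the share was 1.51%. Of the 10 genes 8 belonged to the ER list, in which 20 of the 24 genes called higher had a promoter in the table and 8 of those 20 held a match, and the other 2 were Acnat2 and Hnrnpa3. The 250 bases before the RefSeq start (GRCm38.p6) are given 5′ to 3′ on the strand of the gene, with matches in capitals. The windows are chr10:75893148-75893397 (plus) for Derl3, chr15:88819396-88819645 (plus) for Creld2, chr2:34771840-34772089 (plus) for Hspa5, chr10:86705445-86705694 (minus) for Hsp90b1 and chr12:17266339-17266588 (plus) for Pdia6.
Derl3: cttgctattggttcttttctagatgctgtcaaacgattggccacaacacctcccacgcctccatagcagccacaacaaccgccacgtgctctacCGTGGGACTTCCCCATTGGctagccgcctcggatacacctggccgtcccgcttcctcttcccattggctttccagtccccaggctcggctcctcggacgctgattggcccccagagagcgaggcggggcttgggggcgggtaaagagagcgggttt
Creld2: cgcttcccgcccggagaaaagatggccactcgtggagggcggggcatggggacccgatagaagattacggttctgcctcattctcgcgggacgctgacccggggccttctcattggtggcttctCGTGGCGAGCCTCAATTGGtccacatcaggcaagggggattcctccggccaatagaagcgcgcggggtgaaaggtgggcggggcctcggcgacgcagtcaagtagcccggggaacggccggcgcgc
Hspa5: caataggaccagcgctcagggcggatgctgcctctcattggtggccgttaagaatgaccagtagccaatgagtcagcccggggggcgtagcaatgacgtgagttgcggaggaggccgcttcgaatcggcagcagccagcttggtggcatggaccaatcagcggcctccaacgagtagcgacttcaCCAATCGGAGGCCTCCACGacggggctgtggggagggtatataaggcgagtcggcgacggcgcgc
Hsp90b1: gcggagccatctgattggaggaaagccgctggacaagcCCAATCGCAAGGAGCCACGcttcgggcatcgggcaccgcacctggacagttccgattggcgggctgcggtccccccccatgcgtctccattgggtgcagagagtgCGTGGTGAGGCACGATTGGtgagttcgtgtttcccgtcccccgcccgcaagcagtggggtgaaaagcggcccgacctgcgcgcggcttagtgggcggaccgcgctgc
Pdia6: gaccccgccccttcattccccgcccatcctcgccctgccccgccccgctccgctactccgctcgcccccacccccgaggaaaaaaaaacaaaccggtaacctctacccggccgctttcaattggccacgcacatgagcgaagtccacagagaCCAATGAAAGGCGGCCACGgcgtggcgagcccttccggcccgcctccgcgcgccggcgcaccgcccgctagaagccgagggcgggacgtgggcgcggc
The match lay 65 to 47 bases before the start in Hspa5 and 156 to 138 bases before it in Derl3, on the opposite strand in Derl3. Hsp90b1 held 2 matches, on opposite strands. A match is a description of the sequence and was not tested as a binding site. Of the other motifs searched, TTGCATCA (the C/EBP-Atf element) lay in 1.04% of promoters of genes called higher, 0.78% of those lower, 0.63% of those tested and 0.895% of all, and in 0.671% of those higher by at least 1 on the log2 scale. TCACNCCAC (the sterol element) lay in 1.89% of promoters of genes called higher, 1.37% of those lower and 1.24% of both those tested and all, and in 2.68% of those higher and 1.12% of those lower by at least 1 on the log2 scale.

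Calls were fewer among the Atf4 targets of the integrated stress response (26.7%) than among the ER genes (82.8%). Of 30 tested 5 were higher and 3 lower (median 0.15), and the count of 8 fell to 4 or 5 without any of the 4 Cpt2L-/- libraries or without Ppara KO replicate 3. Asns, asparagine synthetase, was at 31.6, 21.4, 53.3 and 60.8 CPM in Ppara KO and at 6.90, 7.43, 4.58 and 9.93 CPM in Cpt2L-/- (log2 fold change 2.53, SE 0.35, edgeR adjusted p = 0.00086). Cth, which makes cysteine, was higher by 3.59. Trib3, a pseudokinase induced by Atf4, was not called (0.66). Ddit3, a transcription factor of ER stress, was called higher (edgeR adjusted p = 0.024). The Ddit3 call was lost without the filter on low counts and without Cpt2L-/- replicate 2, 3 or 4. Against control, 21 of these genes were higher and 3 lower in Ppara KO (median log2 fold change 1.34). In Cpt2L-/- 15 were higher and 1 lower (median 0.80).

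**Figure D4:**
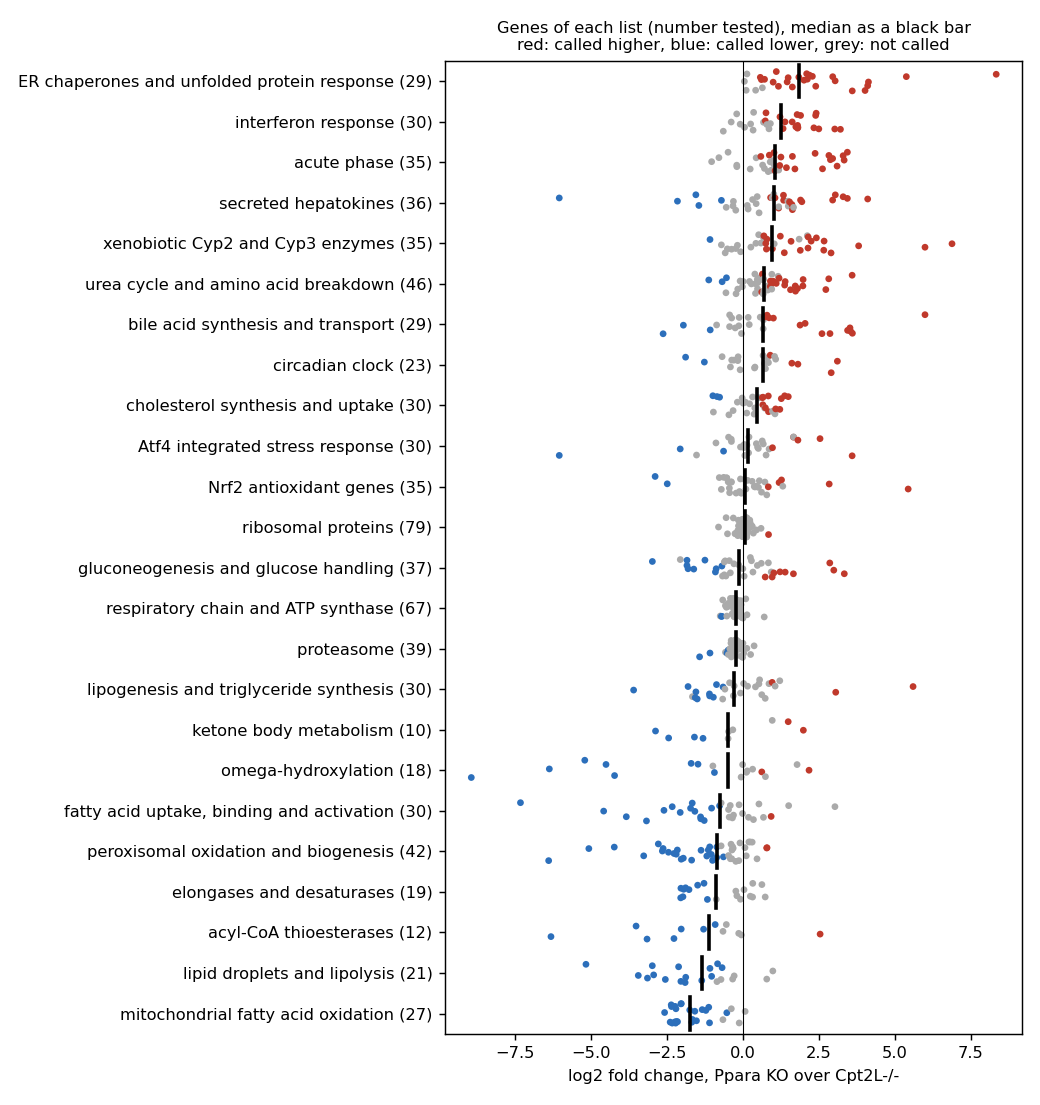
Log2 fold change of Ppara KO over Cpt2L-/- for the tested genes of 24 lists, ordered by median (black bar); the number tested is in parentheses. Red points were called higher, blue points lower and grey points not called. Mitochondrial fatty acid oxidation lies lowest, with a median of -1.76, and the ER list highest, with 1.83.

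Interferon-stimulated genes were higher in 18 of 30 tested and lower in none, with a median of 1.26. Their summed level was 571 to 795 CPM in Ppara KO and 266 to 307 CPM in Cpt2L-/-, and the count stayed between 12 and 19 in every alternative run. The antiviral GTPase Mx2 was at 6.31, 14.7, 10.1 and 2.79 CPM in Ppara KO and at 0.85, 1.36, 0.75 and 0.65 CPM in Cpt2L-/- (log2 fold change 3.20, SE 0.49, edgeR adjusted p = 0.0015). Isg15, a ubiquitin-like modifier, was at 11.9, 10.6, 5.70 and 8.71 CPM and at 1.86, 1.98, 1.04 and 1.63 CPM (log2 fold change 2.49). The levels are low but the groups did not overlap. Oasl1 (3.02), Ifi44 (2.40), Rsad2 (2.39) and the transcription factor Irf7 (2.33) were higher too, while the transcription factor Irf1 (-0.10) was not called. Against control, 10 of these genes were higher and 2 lower in Ppara KO, and none was higher and 13 lower in Cpt2L-/-.

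Acute phase genes were higher in 18 of 35 tested and lower in none (median 1.04). Serpina3m, a protease inhibitor, was at 139, 657, 745 and 398 CPM in Ppara KO and at 31.0, 67.0, 90.1 and 38.1 CPM in Cpt2L-/- (log2 fold change 3.09, SE 0.51, edgeR adjusted p = 0.0024). Lcn2 was at 26.2, 35.8, 102 and 13.8 CPM and at 3.18, 3.35, 2.44 and 7.33 CPM (log2 fold change 3.43). The fibrinogen chains Fgb (2.95), Fgg (2.87) and Fga (2.61) were higher together. Metallothionein Mt2 was at 204, 1604, 1902 and 172 CPM in Ppara KO and 64.1 to 130 CPM in Cpt2L-/-, so the difference (3.33) came mostly from replicates 2 and 3, and was not called without the filter on low counts (adjusted p = 0.087). Saa1, the classical reactant, was not called, with 1038 CPM in Cpt2L-/- replicate 4 against 18.2 to 145 CPM in the others of its group and 82.1 to 225 CPM in Ppara KO.

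The Cyp2 and Cyp3 genes of drug and steroid metabolism were higher in 19 of 35 tested and lower in 1 (median 0.96). Cyp2b10, the standard target of the receptor CAR, was at 64.8, 1435, 1208 and 650 CPM in Ppara KO and at 11.99, 1.98, 10.6 and 3.80 CPM in Cpt2L-/- (log2 fold change 6.88, SE 0.97, edgeR adjusted p = 0.00091). Replicate 1 was far below the other 3 Ppara KO libraries, yet lay above every Cpt2L-/- library. Cyp2c29 was at 1023, 1288, 1012 and 1316 CPM and at 87.6, 73.1, 65.4 and 105 CPM (log2 fold change 3.80, adjusted p = 6.0e-06). Outside the list, Sult1e1, the estrogen sulfotransferase, was at 29.1, 7.36, 42.5 and 15.3 CPM and at 0.32, 0.12, 0 and 0.054 CPM (log2 fold change 7.45). Genes of this family are close copies and reads may have been split between them. Against control, 10 of the Cyp genes were higher and 6 lower in Ppara KO, and none was higher and 22 lower in Cpt2L-/-.

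**Figure D5:**
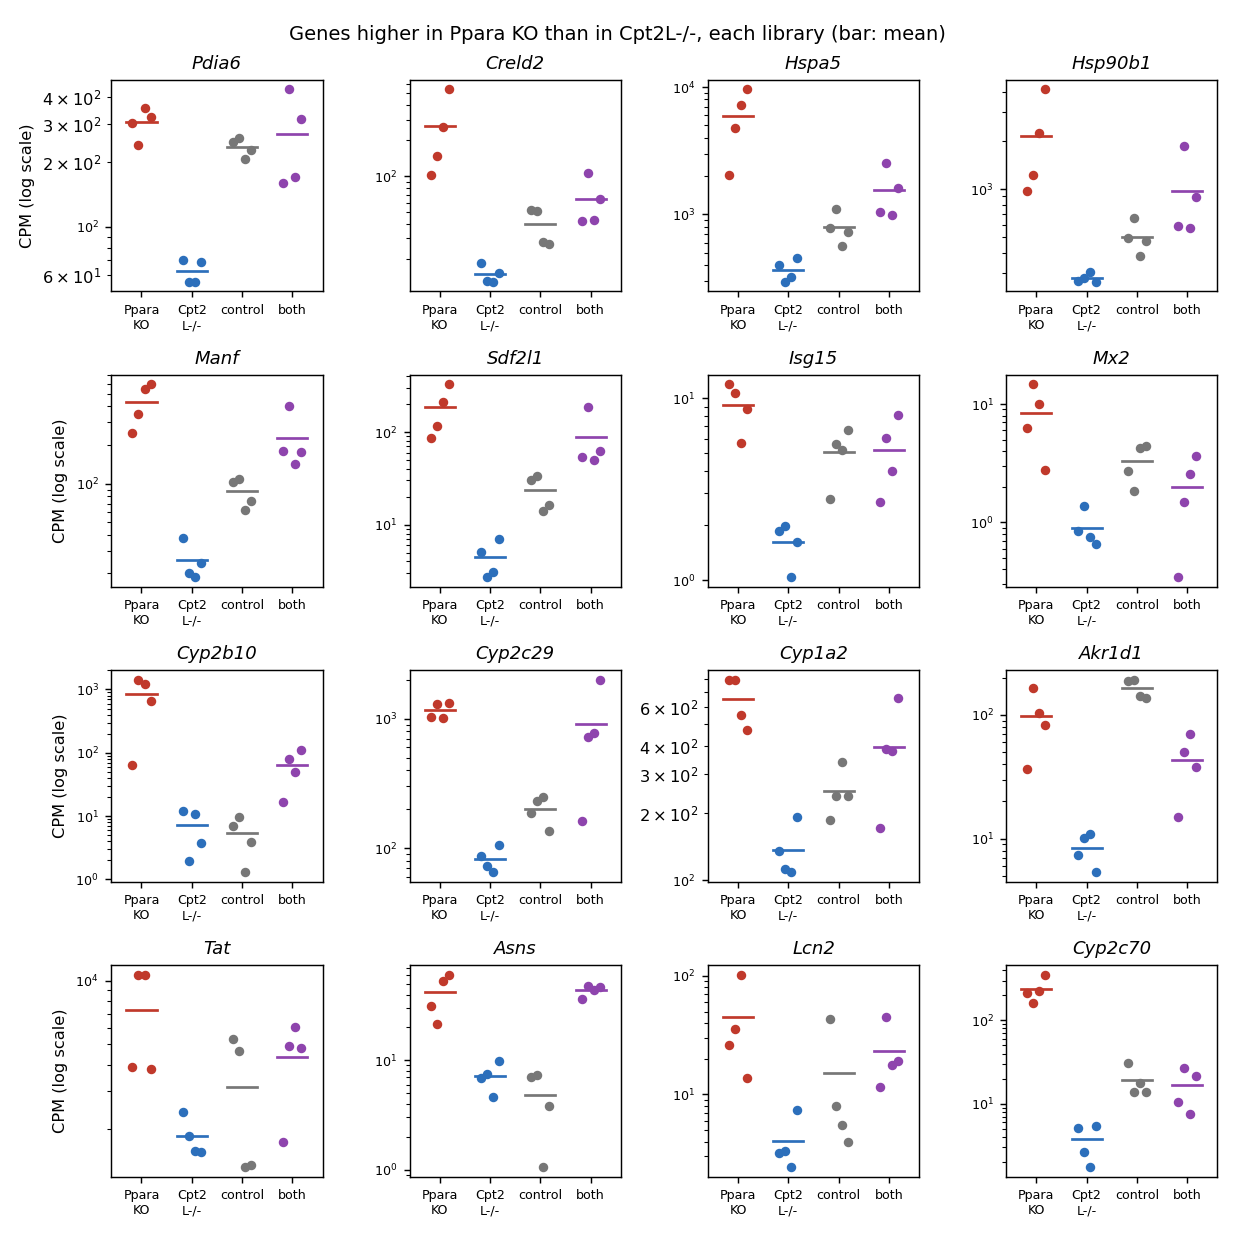
CPM (log scale) in each library of 16 genes called higher in Ppara KO than in Cpt2L-/-, in the same 4 groups, with Cpt2L-/- Ppara KO marked "both". Points are libraries in replicate order and bars are group means. Hspa5 lies between 2049 and 9607 CPM in Ppara KO and between 295 and 451 CPM in Cpt2L-/-, and Cyp2b10 shows a low first Ppara KO library at 64.8 CPM.

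Genes of the urea cycle and amino acid breakdown were higher in 19 and lower in 3 of 46 tested (median 0.68). Tat, tyrosine aminotransferase, was at 3903, 10690, 10690 and 3841 CPM in Ppara KO and at 2392, 1840, 1571 and 1552 CPM in Cpt2L-/- (log2 fold change 1.97). Prodh (1.97) and Ass1 of the urea cycle (1.56) were higher, and the aspartate-glutamate carrier Slc25a13 was lower (-1.13). Against control, 9 of these genes were higher and 9 lower in Ppara KO, and 1 was higher and 20 lower in Cpt2L-/-.

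Other lists are given in brief. The shares called were 20% in the Nrf2 list and 18.5% in the lysosomal list, near the 16.5% of all genes tested. They were 30.4% in the clock and the p53 lists, 42.3% in the sex-biased list and 43.5% in the mitochondrial carriers. Of 35 Nrf2 antioxidant genes 5 were higher, led by Gstm3 (5.43), and 2 lower, Cbr3 (-2.90) and Gstt2 (-2.50). Of 23 clock genes 5 were higher and 2 lower, a count that became 12 without Ppara KO replicate 4 and 4 without Cpt2L-/- replicate 2. Arntl, a core activator, was at 8.43, 41.3, 34.3 and 11.4 CPM in Ppara KO and 1.51 to 4.83 CPM in Cpt2L-/- (2.90), and its target Dbp was lower (-1.90). Of 26 sex-biased and growth hormone responsive genes 7 were higher and 4 lower. Of 23 p53 targets 2 were higher, Trp53inp1 (2.42) and Gadd45a (3.28), and 5 lower. Of 23 mitochondrial carriers 4 were higher and 6 lower, a count of 10 that became 6 and 5 without Cpt2L-/- replicates 2 and 3. Of 54 lysosomal genes 2 were higher and 8 lower, with Lipa, the acid lipase, at 99.5 to 194 CPM in Ppara KO and 515 to 654 CPM in Cpt2L-/- (-2.05), and that count of 10 became 4 or 5 without Cpt2L-/- replicate 1, 2 or 4 or without Ppara KO replicate 3. Housekeeping complexes held few calls, with 0 higher and 2 lower of 67 respiratory chain genes (median -0.23), 0 and 4 of 39 proteasome genes, 1 and 0 of 79 ribosomal protein genes, 1 and 1 of 22 cell cycle genes and 0 and 2 of 17 heat shock genes. The log2 fold change was below 0 in 64 of the 67 respiratory chain genes and 35 of the 39 proteasome genes. These small counts moved when single libraries were left out, to between 0 and 5 for the respiratory chain (5 without Ppara KO replicate 4), 2 and 9 for the proteasome (9 without Ppara KO replicate 1), 0 and 2 for ribosomal proteins, 1 and 2 for the cell cycle and 1 and 4 for heat shock (4 without Ppara KO replicate 1). The called genes included Rrm2, a ribonucleotide reductase subunit (3.53), and the small heat shock protein Hspb1 (-2.07).

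Of the genes with the largest rises, several are not members of the lists. Gldn (gliomedin) was at 31.6, 12.1, 16.01 and 33.7 CPM in Ppara KO and had 1 count over the Cpt2L-/- libraries, a ratio of 1740 (311 to 68600, 95% exact interval). Myom3, a protein of the muscle M-band, was higher by 6.75 and Moxd1, a monooxygenase-like protein, by 6.74. Bhlha15 (Mist1), a transcription factor of secretory cells, was at 2.26, 11.9, 12.9 and 8.32 CPM and at 0.062 to 0.21 CPM (log2 fold change 6.03). Slc34a2, a phosphate transporter, was at 0.77, 29.9, 12.5 and 1.53 CPM and at 0 to 0.31 CPM, a call lost without the filter on low counts (adjusted p = 0.072) and with limma on log2 FPKM, where the log2 fold change was 1.32 (adjusted p = 0.094). Gm27252, which overlaps Klf13 on the opposite strand, was higher by 5.76, with 213 and 122 CPM in replicates 2 and 3 and 15.4 and 16.7 CPM in replicates 1 and 4.

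Marker genes of liver cell types were then summed. In bulk RNA, fewer cells of a type and less RNA per cell cannot be told apart. Hepatocyte markers had 1 of 9 called, but all 9 had a log2 fold change above 0 (median 0.43). The defining genes were abundant in both groups (summed 65600 to 84700 and 41100 to 66500 CPM). Pericentral markers were higher in 6 of 10, among them Slc1a2 (2.31), Cyp1a2 (2.24) and Glul (1.40), while Cyp2e1, the most abundant of the 10, and Axin2 were not called (-0.52 and -0.54). Their sum overlapped, at 4630 to 8360 CPM in Ppara KO and 6090 to 8840 CPM in Cpt2L-/-, against 15500 to 17400 CPM in control livers, and against control 4 of the 10 were lower and 1 higher in Ppara KO (median -0.81), and 9 were lower and none higher in Cpt2L-/- (median -1.84). Periportal markers were higher in 5 of 10 and lower in 1, and summed to 41000 to 62700 and 24200 to 44300 CPM. Macrophage markers had 1 of 17 called (393 to 528 and 401 to 622 CPM), stellate markers 1 of 14, endothelial markers 0 of 12 by edgeR and by DESeq2 (1 at an unadjusted p under 0.05), lymphocyte markers 2 of 4 lower and adipocyte markers 1 of 2 lower. Leaving out single libraries moved the macrophage count to between 0 and 3 (3 without Cpt2L-/- replicate 2), the hepatocyte and stellate counts to 2 without Ppara KO replicate 1 or 4, and the lymphocyte count to 1 without Cpt2L-/- replicate 1, 2 or 4 or Ppara KO replicate 1, 3 or 4. The single tested markers of neutrophils and pancreatic acini were not called, and no skeletal muscle marker passed the filter. Cholangiocyte markers summed to 53 to 67.9 CPM in Ppara KO and 24.7 to 41.5 CPM in Cpt2L-/-, with 2 of 7 called (1 without Cpt2L-/- replicate 3), Sox9 among them, while Krt19 and Epcam were not. Erythroid markers were higher in all 5 tested and summed to 412 to 1980 and 152 to 393 CPM, with Hbb-bs at 223, 946, 173 and 574 CPM and at 66.3, 92.4, 57.8 and 153 CPM. That count became 1 without Cpt2L-/- replicate 1, 2 or 3, 2 without Ppara KO replicate 2 and 0 without the filter on low counts. The part of erythroid RNA in the other differences was not tested.

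Genes that differ between C57BL/6 substrains were also read. Nnt, which carries a deletion in C57BL/6J, was at 48.4, 24.4, 17.4 and 30.6 CPM in Ppara KO and at 118, 134, 147 and 131 CPM in Cpt2L-/- (log2 fold change -2.14, SE 0.27, edgeR adjusted p = 0.00048), against 202 ± 14.7 CPM (SD, n = 4) in control livers. Cd1d2 was below 1 CPM in all 8 libraries and at 35.4 ± 19.5 CPM (SD, n = 4) in control livers. Of 5 such genes tested 2 were called, Nnt and Wdfy1, and Wdfy1 was lost without Cpt2L-/- replicate 1, 3 or 4. Against control, 7 of 8 such genes tested were lower in Ppara KO (median log2 fold change -5.57), and in Cpt2L-/- 5 were lower and 1 higher (median -5.5), so the controls stood apart from both groups in these genes. Genotype and substrain cannot be told apart from these counts.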

How the data were processed

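RNA from mouse liver was measured by stranded mRNA sequencing with single reads of 75 bases. The read counts per gene were used as the authors deposited them, and the FPKM values the authors deposited, which scale those counts by gene length and depth, were recomputed from the counts to within 9.1e-07. The submitters' processing notes name STAR 2.5, HTSeq 0.6.1, Bowtie 0.12.2, TopHat, DESeq2 and edgeR, and the builds mm8 and mm9, with no roles. The coordinates in the count table are those of GRCm38: 97.5% of the 34490 identifiers found in GENCODE M21 start and end within 10000 bases. The strand setting of the counting is not given in the sources used here.

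Of 35275 genes, those passing filterByExpr (minimum count 10, minimum total 15) were tested with edgeR 4.0.16 in R 4.3.3 (TMM scaling, robust quasi-likelihood fit of the 8 libraries, Benjamini-Hochberg adjustment, threshold 0.05). CPM were scaled over the 16 libraries of 4 groups. Comparisons with control came from a fit of 12 libraries. Alternatives used DESeq2 1.42.0, limma 3.58.1 on log2 FPKM with a pseudocount of 1, other scalings, filters and sets of libraries, a replicate block, and each library left out. The edgeR script was tested on simulated data. No 2 libraries of a group agreed within sampling noise. Intervals on count ratios are exact, at 95%, and cover counting error only.

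Genes were named by rule: the deleted genes; in each direction, the 10 called genes whose log2 fold change was largest, given no overlap and a mean over the 8 libraries of 1 CPM or more; from each of 46 lists, up to 4 called members with the largest change; and a set of metabolic and stress genes whatever their values. Other genes in the text, such as further list members, Txnip, Hspa5, Hsp90b1 and Pdia6, were picked once their values were known. The comparison and the lists were chosen with earlier results of these data known. Fam210a, listed in error, was removed from its list after the values were available. The ER stress element was added to the promoter motifs after the data were seen. Promoters were from RefSeq (GRCm38.p6), in which 9887 of 12860 tested genes were matched by symbol. Some genes are not reported here.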

Additional observations from a re-analysis of the deposited data

Results flagged for a closer look

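Values were looked at in 307 groups of 4 libraries, and in 12 of them a library lay far from the other 3 by Dixon's test at 95%, where chance alone marks about 1 in 20 groups. In Cpt2L-/- replicate 1, Cpt1a was low at 1247 CPM (others 1690 to 1771) and Scd1 was low at 203.9 CPM (others 711.8 to 759.4). In Cpt2L-/- replicate 2, Wdfy1 was low at 27.32 CPM (others 31.96 to 32.59). In Cpt2L-/- replicate 3, Nr0b2 was high at 9.164 CPM (others 0.8488 to 1.796) and Lipg at 78.06 CPM (others 25.99 to 34.4). In Cpt2L-/- replicate 4, Pparg was high at 26.37 CPM (others 20.94 to 21.5) and Saa1 at 1038 CPM (others 18.21 to 145).

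In Ppara KO replicate 1, Apoa4 was high at 4132 CPM (others 973.6 to 1369). In replicate 2, Me1 was low at 40.16 CPM (others 58.49 to 60.93). In replicate 3, Ddit3, a transcription factor of ER stress, was high at 62.11 CPM (others 15.3 to 20.19). In replicate 4, Mvd was high at 11.44 CPM (others 6.313 to 6.453) and Cycs, cytochrome c, was low at 64.79 CPM (others 111 to 118.3).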

How the results depend on the processing

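Of 167 named genes tested, 127 kept their call in every alternative run, 35 lost it and 5 gained it in at least 1, and none reversed. The count of 2127 called genes became 1301 (676 higher, 625 lower) when an absolute log2 fold change of 1 was also required. It ranged from 1410 to 2794 when 1 library was left out (679 to 1493 higher, 706 to 1301 lower): 1501, 1470, 1410 and 1489 without Cpt2L-/- replicates 1 to 4, and 2794, 1807, 1495 and 2567 without Ppara KO replicates 1 to 4. It was 2807 with DESeq2, 1868 with limma and 2878, 2479 and 3066 in fits of 12, 16 and 24 libraries. Leave-one-out counts ranged from 3488 to 5097 for Ppara KO against control (1893 to 2703 higher, 1581 to 2394 lower) and from 1940 to 2486 for Cpt2L-/- against control (977 to 1322 higher, 963 to 1164 lower). A fit of the 8 Cpt2L-/- and control libraries alone called 4137 genes, 2075 higher and 2062 lower, and a fit of the 8 Ppara KO and control libraries alone called 3559, 1915 higher and 1644 lower, so the order of the groups turned. The ER stress element lay in 0.0% of promoters of genes lower by at least 1, against 0.0976% of all called lower, and in 1.51% of those higher by at least 1, against 0.947%. Same-numbered libraries were not shown to be paired (correlations of their deviations 0.0488, 0.0826, -0.077 and 0.262). With the replicate number as a block 2065 genes were called, 1817 of them shared, and 4370 and 2751 against control in Ppara KO and Cpt2L-/-. Of the genes named in the text, Trib3 was called only with the block among the alternatives (adjusted p = 0.042), and Mt2, Pparg and Ddit3 were not called with it (0.087, 0.054 and 0.054). The cause of these changes was not tested. Whether the spread among the 4 Ppara KO libraries hid small changes was not tested.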
